A study of Mus musculus with 172 samples.

Results

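The Egr family of transcription factors, Egr1, Egr2, Egr3 and Egr4, was followed in cerebral cortex and liver of BXD mice under undisturbed conditions and after enforced wakefulness. The members were chosen by name, as the 4 genes of this family, and not by a filter on their values. Earlier results of these data were known when they were chosen. All 4 were among the 14896 genes listed for cortex. Egr1 was among the 14107 genes listed for liver, and the other members were not analysed there.

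Egr proteins bind GC-rich DNA through a conserved set of zinc fingers and act as immediate early genes, transcribed within minutes of synaptic activity or growth factor signals without new protein synthesis. The kinase ERK, the ternary complex of serum response factor and Elk proteins at CArG boxes, and CREB at cAMP response elements are the best known routes to their promoters. In cortical neurons Egr1 and Egr3 are widely used as markers of recent neuronal activity, Egr2 is also known for its role in myelinating Schwann cells, and the Nab proteins bind Egr1, Egr2 and Egr3 as corepressors.

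RNA was sequenced from 33 BXD/RwwJ recombinant inbred lines, their parental strains C57BL/6J (B6) and DBA/2J (D2), sampled as 2 pools each, and both reciprocal F1 crosses. Each of these 39 line or strain pools gave 1 library per tissue from mice left undisturbed (Ctr) and 1 from other mice kept awake by gentle handling for 6 h from light onset (SD), all killed at ZT6, which is 6 h after light onset. The mice were males of 11 to 14 weeks, pooled as 3 animals per line, tissue and condition, with fewer in BXD79, BXD85 and BXD101. A library is thus 1 pool, and the spread between mice of a line was not measured. A further 4 BXD/TyJ pools (BXD05, BXD29, BXD29t and BXD32) are given apart. The p-values therefore measure the spread between these pools, and lower transcript content of a bulk pool cannot be told apart from fewer expressing cells. BXD48a, BXD65a and BXD73b share a line number with BXD48, BXD65 and BXD73 and may not be independent of them. The same holds for BXD29t and BXD29 among the BXD/TyJ pools.

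Sequencing depth was 18995492 to 28998853 counted reads per library in cortex and 4681101 to 8269401 in liver in the 39 pools, and the BXD/TyJ liver libraries held 5887216 to 9022854. The markers of cortical neurons summed to between 6404 and 7930 CPM (reads scaled to library size) in every cortex library, and 9 of these 10 markers were not listed in liver. In cortex 4 of the 10 rose with SD, 2 fell and 4 did not pass, where 68.4% of all genes listed passed. The 5 hepatocyte markers were all listed in liver, summing to between 1115 and 1910 CPM, and of these Ttr alone was listed in cortex. Of 6 striatal markers in the cortex libraries, 2 rose and 1 fell with SD, where 68.4% of all genes listed in cortex passed the test, with a summed level of 72.8 to 166 CPM in Ctr and 84.8 to 216 CPM in SD. Of the 4 listed dentate gyrus markers, 2 fell (summed level 7.40 to 34.8 CPM in Ctr and 9.68 to 21.2 CPM in SD). None of the listed choroid plexus or pituitary markers passed the test in cortex, but their levels varied widely between pools. The choroid plexus markers summed to 7.71 to 238 CPM in Ctr and 6.77 to 410 CPM in SD. The pituitary markers summed to 0.560 to 59.9 CPM in Ctr and 0.457 to 6.56 CPM in SD. The part of these markers in the Egr results was not tested.

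The genes lie on different chromosomes of the mouse genome (mm9), Egr2 on chromosome 10 from 66998223 to 67004936 on the plus strand, Egr3 on chromosome 14 from 70477252 to 70479964 on the plus strand, and Egr4 on chromosome 6 from 85461125 to 85463583 on the minus strand. Because the members moved together over pools, the 250 bases before the start of the longest coding transcript are shown for Egr2, the member with the largest change, and for Egr4, the member with the smallest. Capitals mark a CArG box and the short form TGACG of the cAMP response element in either orientation, with bases written 5′ to 3′ along the gene.
Egr2, plus strand, chr10:67000367-67000616: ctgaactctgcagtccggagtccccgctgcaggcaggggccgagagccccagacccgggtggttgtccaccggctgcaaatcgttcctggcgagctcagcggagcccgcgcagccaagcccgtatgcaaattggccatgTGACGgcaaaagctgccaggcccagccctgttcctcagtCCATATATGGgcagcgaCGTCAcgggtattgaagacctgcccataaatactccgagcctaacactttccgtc
Egr4, minus strand, chr6:85463584-85463833: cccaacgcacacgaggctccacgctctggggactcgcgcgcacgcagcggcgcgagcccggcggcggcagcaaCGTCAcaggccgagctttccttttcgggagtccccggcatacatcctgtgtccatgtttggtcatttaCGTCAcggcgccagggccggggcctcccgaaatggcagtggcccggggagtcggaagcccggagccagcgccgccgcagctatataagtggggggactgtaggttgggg
Both windows lay outside the exons annotated for the Egr genes. The Egr2 window lay within the span of the annotated gene, which begins at 66998223, so it is not upstream of the whole gene. The Egr3 model began at its start codon, so no window was taken before it. Matches were sought on both strands in the windows of 12828 cortex-listed genes whose model had a 5′ untranslated region. A CArG box was found in 1.13% of these windows, and the Egr2 window held 1, from 72 to 63 bases before the start. The Egr1 window held 2 CArG boxes, which 0.031% of windows did, and the Egr4 window held none. The short form TGACG was found in 25.1% of windows and at least 2 times in 6.46%. The Egr1, Egr2 and Egr4 windows each held 2. The full element TGACGTCA, which contains the short form, was found in 2.57% of windows, and the canonical Egr site GCGTGGGCG in 0.974%. Neither occurred in the windows of these 3 members. A match says only that these letters are in the window.

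In cortex all 4 members were higher after SD, and the clearest separation of the groups was that of Egr3, like Egr1 a gene induced by synaptic activity. Levels are given as log2 CPM. In Ctr pools Egr3 ran from 4.77 in BXD90 over a median of 5.66 to 6.24 in BXD89, and in SD pools from 6.51 in BXD87 over 7.20 to 7.55 in BXD44. Every SD pool was thus above every Ctr pool, a separation that 1.01% of cortex genes had. Egr3 rose in 39 of 39 pools, by 1.54-fold in BXD89, 2.93-fold at the median and 5.40-fold in BXD90, and by at least 2-fold in 37.

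Egr1, the most abundant member, lies on chromosome 18 from 35020861 to 35024638 on the plus strand (mm9). It had Ctr levels from 7.22 in BXD44 over a median of 7.71 to 8.63 in BXD101. Its SD levels ran from 8.55 in BXD98 over 9.20 to 9.56 in BXD44. The ranges met at a single Ctr pool, BXD101, which lay above the lowest SD pool, while 3 SD pools lay below that Ctr pool. BXD101 is 1 of the 3 pools made from fewer mice. Egr1 rose in 39 of 39 pools, by 1.35-fold in BXD89 and 5.06-fold in BXD44, with a median of 2.62-fold and at least 2-fold in 32 pools.

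Egr2, the member with the fewest reads in Ctr mice, had Ctr levels from 0.11 in BXD67 over a median of 1.35 to 3.69 in BXD89. In SD pools it ran from 3.54 in D2-1, the first DBA/2J pool, over 4.53 to 5.26 in BXD44. Only BXD89 among the Ctr pools reached into the SD range, and 2 SD pools lay below it. The fold between the pools of a line was 1.25 in BXD89, 8.64 at the median and 32.0 in BXD44. It was at least 4-fold in 33 pools and at least 8-fold in 22 of the 39.

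Egr4, the least studied member and one expressed mainly in neurons, had Ctr levels from 3.43 in BXD67 over a median of 4.07 to 5.10 in BXD89. Its SD levels ran from 4.06 in BXD64 over 5.28 to 5.76 in BXD44. Here the ranges overlapped, with 20 Ctr pools above the lowest SD pool and 12 SD pools below the highest Ctr pool. Egr4 rose in 38 of 39 pools, and BXD89 was the exception, with an SD level 0.920 times its Ctr level. The median fold was 2.26, the highest 3.86 in BXD67, and 25 pools reached 2-fold.

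All 4 changes passed limma's moderated test across the 14896 genes, where 68.4% of genes passed at a Benjamini-Hochberg adjusted p under 0.05, 33% upward and 35.4% downward, so passing alone did not set the members apart. Passing with a log2 fold change of at least 1 was met by 0.752% of genes and by all 4 members. A rise in every pool was found for 6.48% of genes and for Egr1, Egr2 and Egr3. The mean log2 fold change of Egr4 was 1.14 (SE 0.069, adjusted p = 3.79e-26), which placed it 76 from the top of all genes by size of increase. The adjusted p of Egr1 was 1.82e-32, that of Egr2 4.29e-32 and that of Egr3 7.76e-42. With the line kept as a block, all 4 calls held.

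**Figure D1:**
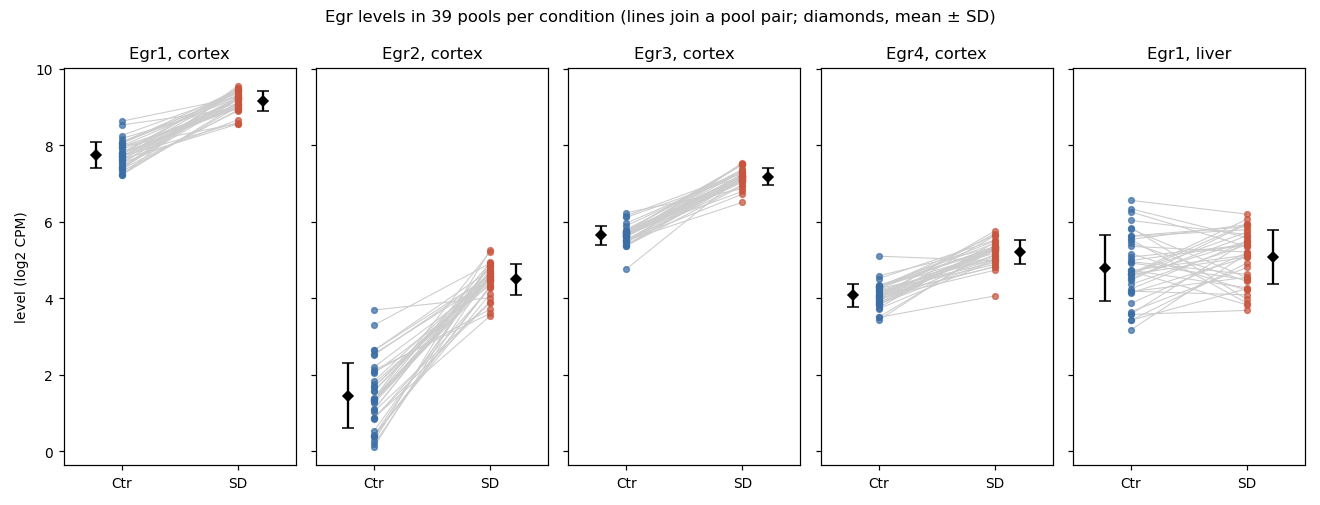
Level (log2 CPM) of each Egr gene in the 39 Ctr and 39 SD pools, joined by line, for the 4 members in cortex and for Egr1 in liver; diamonds and bars give mean and standard deviation. The Egr3 groups do not overlap, Egr2 pools draw together from a wide Ctr range, and the liver lines of Egr1 cross.

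Egr1 was the most abundant member also per length. Divided by the exonic length of the annotated models (3.1 kb for Egr1, 3.398 kb for Egr2, 1.469 kb for Egr3 and 2.138 kb for Egr4), the mean Ctr levels were 6.11 for Egr1, 5.09 for Egr3, 2.98 for Egr4 and -0.32 for Egr2, in log2 CPM per kb. After SD the order was the same, at 7.52, 6.62, 4.12 and 2.73. Each neighbour in this order was above the next in 39 of 39 pools in both conditions. The Egr3 model begins at the start codon and may be shorter than the model used for counting. Its Ctr level per kb would equal that of Egr4 if the counted length were 6.38 kb. On this per-kb scale the mean difference of Egr2 from Egr4 was -3.29 in Ctr pools and -1.39 in SD pools.

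The members differed in the size of their change. Egr2 had the largest change of the 4 in 38 of 39 pools, and Egr3 in the remaining one, BXD89. Egr4 had the smallest in 32 pools, Egr1 in 4 and Egr3 in 3. The Egr2 change exceeded that of Egr3 by 1.52 on the log2 scale (SE 0.127), that of Egr1 by 1.64 and that of Egr4 by 1.90 (SE 0.117). Two-sided sign-flip permutation tests over the 39 pools gave p = 1e-05 for each of these, the smallest value that 100000 resamples can give, and 1.2e-05 after adjustment over the 6 pairs of members. The Egr3 change exceeded that of Egr4 by 0.39 (SE 0.057, larger in 35 of 39 pools) and the Egr1 change exceeded that of Egr4 by 0.26 (SE 0.042, larger in 35), with the same adjusted p. The gap between Egr3 and Egr1 was narrower, at 0.12 (SE 0.048), with Egr1 the larger in 14 pools (permutation test, adjusted p = 0.0138). On the linear scale the order is another one, since the absolute gain in CPM of Egr1 was the largest. There Egr1 gained 336 CPM more than Egr2, and the gains of Egr2 and Egr4 differed by 0.72 CPM (permutation test, adjusted p = 0.357).

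On the log2 scale the spread between pools narrowed after SD for Egr2. Its standard deviation over pools was 0.85 in Ctr and 0.39 in SD, a ratio of 0.464 (permutation test swapping conditions within lines, adjusted p = 0.00105 over 5 tests, 39 pools). The ratio was 0.772 for Egr1 (adjusted p = 0.30), 0.905 for Egr3 (adjusted p = 0.921), 0.997 for Egr4 (adjusted p = 0.99) and 0.814 for Egr1 in liver (adjusted p = 0.30), none of which passed the same permutation test. In linear CPM it went the other way. All 4 cortex members then had the wider spread in SD pools, and all passed the same permutation test, with Egr2 going from 2.40 to 5.98 CPM (adjusted p = 0.00115), Egr1 from 55.7 to 98.4 (adjusted p = 0.00888), Egr3 from 8.57 to 21.8 (adjusted p = 0.00123) and Egr4 from 4.09 to 7.42 (adjusted p = 0.0239). Counting error was small beside these spreads. At the median of 59 Egr2 reads per Ctr library it corresponds to 0.19 on the log2 scale, and at the median of 530 reads in SD libraries to 0.063. The Ctr pools held 82.3% of the summed variance of Egr2 over both conditions, against 62.7% for Egr1, 54.9% for Egr3 and 50.1% for Egr4.

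Pools varied more in the Egr genes than in most other genes of similar abundance. The paired change of Egr1 in cortex had a standard deviation of 0.43 over pools, the highest of 518 genes within 0.5 log2 CPM of its mean level, whose median was 0.089. The Egr2 change, at 0.98, was the highest of 1566 such genes (median 0.20). The Egr3 change, at 0.32, ranked 12 of 2014, and the Egr4 change, at 0.41, ranked 17 of 2376. In Ctr pools the level of Egr2 ranked 27 of 1038 genes by spread, and in SD pools 48 of 2343.

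The same lines marked the ends of these ranges for several members. BXD89 had the highest Ctr level of Egr2, Egr3 and Egr4 and the smallest change of all 4. Its SD minus Ctr change was 0.43 for Egr1, 0.32 for Egr2, 0.63 for Egr3 and -0.12 for Egr4 on the log2 scale. BXD44 had the highest SD level of all 4 members, and the largest change of Egr1 (2.34) and Egr2 (5.00). BXD90 stood apart in Egr3, with the lowest Ctr level and the largest change (2.43), while its Egr4 change was 0.78. BXD67 had the lowest Ctr levels of Egr2 and Egr4, and the largest Egr4 change (1.95). The change is SD minus Ctr, so it contains the Ctr level with the opposite sign. An extreme Ctr level and an extreme change of a pool are therefore not separate observations.

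**Figure D2:**
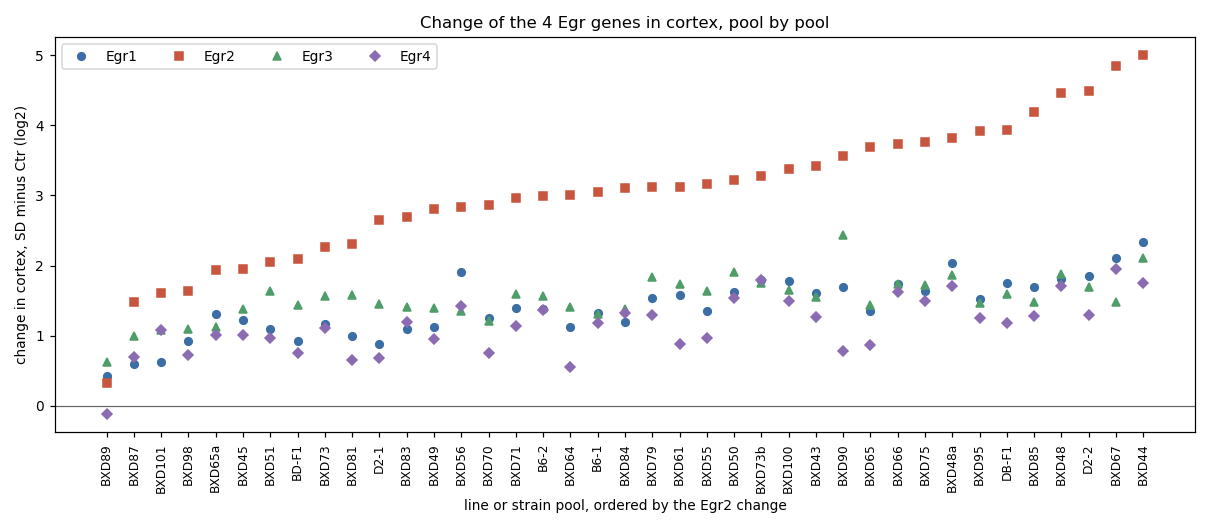
Change in cortex, SD minus Ctr on the log2 scale, of the 4 Egr genes in each of 39 line or strain pools, ordered by the Egr2 change. Egr2 lies above the other members in every pool except BXD89, where Egr4 falls below 0.

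Over the 33 BXD/RwwJ lines the changes of the members went together. The correlation of the change was highest between Egr1 and Egr2 (Pearson r = 0.879, Spearman rho = 0.845, n = 33). It was 0.810 between Egr1 and Egr4 (rho = 0.795), 0.747 between Egr2 and Egr4 (rho = 0.663), 0.729 between Egr1 and Egr3 (rho = 0.678) and 0.700 between Egr2 and Egr3 (rho = 0.676). Two-sided permutation tests gave p = 1e-05 for Pearson's r of each of these 5 pairs, the smallest value possible, or 2.17e-05 after adjustment over all 26 correlations computed. Spearman's rho gave adjusted permutation p-values of 4.33e-05 to 9.45e-05 for them. The lowest correlation was that of Egr3 with Egr4 (r = 0.553, rho = 0.541), with an adjusted permutation p of 0.00173 for r and 0.0022 for rho. Without the 2 lines farthest from the median of the first-named gene, BXD44 and BXD89 in the first 5 pairs, r was 0.827, 0.749, 0.629, 0.619 and 0.558 in the order given. For Egr3 with Egr4 it was 0.610 without BXD90 and BXD89. The genes of a pair were measured in the same libraries, so errors of a library are shared. Each change also contains the Ctr level, so these correlations are not separate from those of the Ctr and SD levels.

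**Figure D3:**
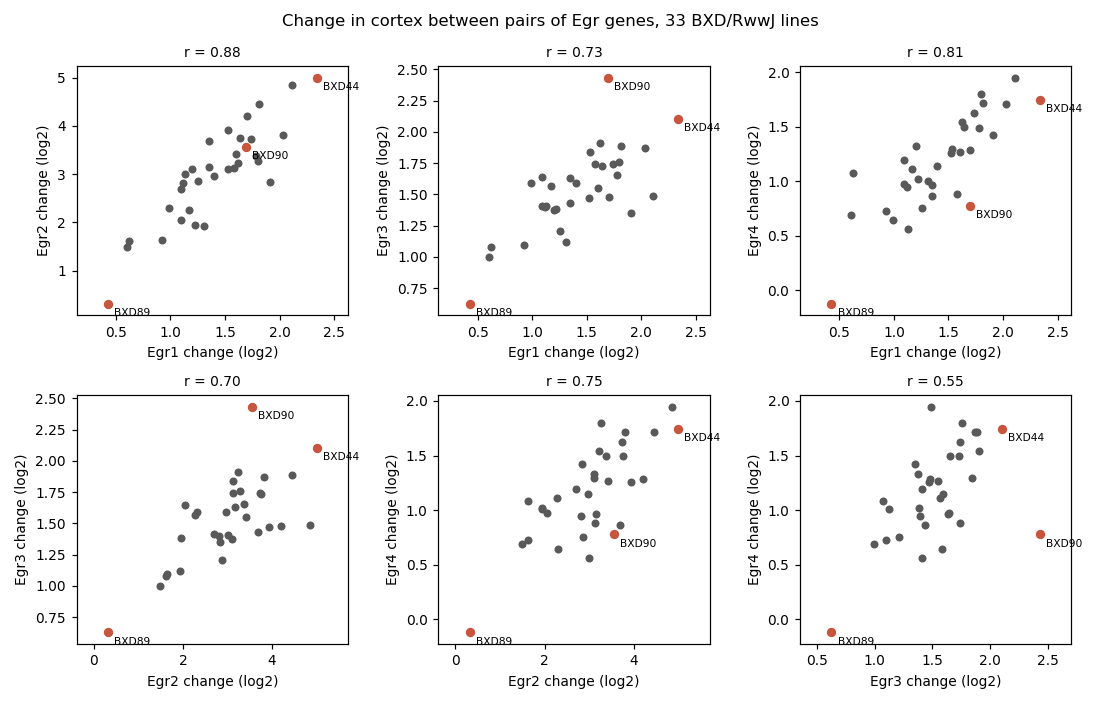
Change in cortex (SD minus Ctr, log2) of one Egr gene against another in 33 BXD/RwwJ lines, 1 panel for each of the 6 pairs, with Pearson's r above the panel. BXD89 lies at the lower left in all panels, BXD44 at or near the upper right, and BXD90 is off the main cloud wherever Egr3 is plotted.

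Within SD pools the levels of all pairs were also correlated over the 33 lines, from r = 0.608 for Egr3 with Egr4 (rho = 0.645) to 0.875 for Egr1 with Egr2 (rho = 0.858). The adjusted permutation p-values for r were 2.17e-05 to 0.000501 and those for rho 4.33e-05 to 0.0018, and without the 2 farthest lines r ran from 0.479 to 0.814. In Ctr pools Egr1, Egr2 and Egr4 went together, with r = 0.840 for Egr1 with Egr2 (rho = 0.743), 0.758 for Egr1 with Egr4 (rho = 0.821) and 0.713 for Egr2 with Egr4 (rho = 0.658), each with an adjusted permutation p of 2.17e-05 for r and at most 7.8e-05 for rho. Without the 2 farthest lines these were 0.740, 0.728 and 0.608.

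For Egr3 the correlations in Ctr pools depended on the lines and pools included. Its r was 0.404 with Egr1, 0.440 with Egr2 and 0.405 with Egr4 (rho = 0.262, 0.314 and 0.284), with adjusted permutation p-values of 0.0336, 0.0189 and 0.036 for r, and of 0.205, 0.128 and 0.168 for rho. Without the 2 farthest lines r was 0.086 with Egr1 and 0.165 with Egr2 (permutation p = 0.654 and 0.384), so over the 33 lines these relations rested on BXD89 and BXD101. The BXD101 pools were made from fewer mice. With Egr4 r was 0.311 without BXD89 and BXD90 (permutation p = 0.0873). Over all 39 pools, parental and F1 pools included, r was 0.449, 0.458 and 0.424 and rho was 0.401, 0.412 and 0.384, and rho then passed for all 3 pairs (adjusted permutation p = 0.0171, 0.0167 and 0.0243). Without the same lines r over the 39 pools was 0.225, 0.239 and 0.357 (permutation p = 0.186, 0.153 and 0.0305). Whether these correlations were lower than those in SD pools was not tested.

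The Ctr and SD levels of a line were not correlated at the threshold for any member. Pearson's r between Ctr and SD levels over the 33 lines was -0.11 for Egr1 (rho = -0.11), -0.23 for Egr2 (rho = -0.18), 0.035 for Egr3 (rho = 0.12) and 0.063 for Egr4 (rho = -0.11). Their adjusted permutation p-values were 0.268 to 0.88 for r and 0.421 to 0.60 for rho. Without the 2 farthest lines r was -0.10, -0.25, 0.21 and 0.24. For Egr1 in liver r was 0.21 (rho = 0.15, adjusted permutation p = 0.308 and 0.505), and 0.077 without BXD101 and BXD98. Ctr and SD pools of a line come from different mice, and a p above the threshold does not show that the levels are unrelated.

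Pools that share a line number or a parental strain lay apart to different degrees. In Ctr cortex Egr2 was 0.42 in BXD65 and 2.54 in BXD65a, a gap of 2.13 against a standard deviation of 0.85 over all pools. It was 0.41 in BXD48 and 1.40 in BXD48a, and 2.20 in BXD73 and 1.25 in BXD73b. The Egr2 change was 3.69 in BXD65 and 1.93 in BXD65a. For Egr3 the changes of BXD48 and BXD48a were 1.88 and 1.87, and for Egr4 both were 1.71. The B6 pools, taken at the start and end of the collection, had Egr1 changes of 1.33 and 1.39 in cortex, and the D2 pools 0.88 and 1.85. For Egr2 the B6 changes were 3.04 and 2.99 and the D2 changes 2.66 and 4.49. The D2 pools were both below the B6 pools in Egr1, Egr3 and Egr4, in Ctr as well as SD cortex. With 2 pools per strain no test was run. In Ctr cortex the reciprocal F1 pools differed most in Egr2, at 2.63 in BD-F1 and 0.39 in DB-F1, with 1 pool each.

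In liver the single listed member, Egr1, varied widely and without a common direction. Its Ctr levels ran from 3.18 in BXD48 over a median of 4.71 to 6.56 in BXD98, and its SD levels from 3.68 in BXD81 over 5.19 to 6.20 in BXD98, with 33 Ctr pools above the lowest SD pool and all 39 SD pools below the highest Ctr pool. Egr1 was higher after SD in 24 of 39 pools and lower in 15. The change ran from -1.88 in BXD43 to 1.99 in BXD48, with 12 pools at a gain of 2-fold or more and 4 at a loss of 2-fold or more. The mean log2 fold change did not pass (0.27, SE 0.17, limma adjusted p = 0.210), whereas 44.2% of liver genes passed, 21.5% upward and 22.6% downward. It came to 0.39 with an adjusted p of 0.0447 when the 4 BXD/TyJ pools were included. At a median of 178 Egr1 reads per Ctr library and 220 per SD library, counting error was 0.11 and 0.097 on the log2 scale, against standard deviations over pools of 0.86 and 0.70. The liver change had a standard deviation of 0.99, ranking 3 of 1889 genes within 0.5 log2 CPM of its level (median 0.24). Of 8 markers of liver immune cells, 5 fell with SD, among them the B cell genes Cd79a, Cd79b and Ms4a1, while the summed level of the list was 93.5 to 210 CPM in Ctr and 94.4 to 200 CPM in SD. The part of these cells in the Egr1 values was not tested.

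By panel, the liver change was as follows. Of the 33 BXD/RwwJ lines, 18 rose, with a mean change of 0.14. All 6 parental and F1 pools rose, from 0.24 in B6-1 to 1.497 in DB-F1, and so did the 4 BXD/TyJ pools, from 0.47 in BXD05 to 2.44 in BXD32. In cortex the same BXD/TyJ pools had Egr1 changes of 0.92 to 1.44, inside the range of the other lines. The difference between panels was not tested, since the panels were looked at after the values were known.

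**Figure D4:**
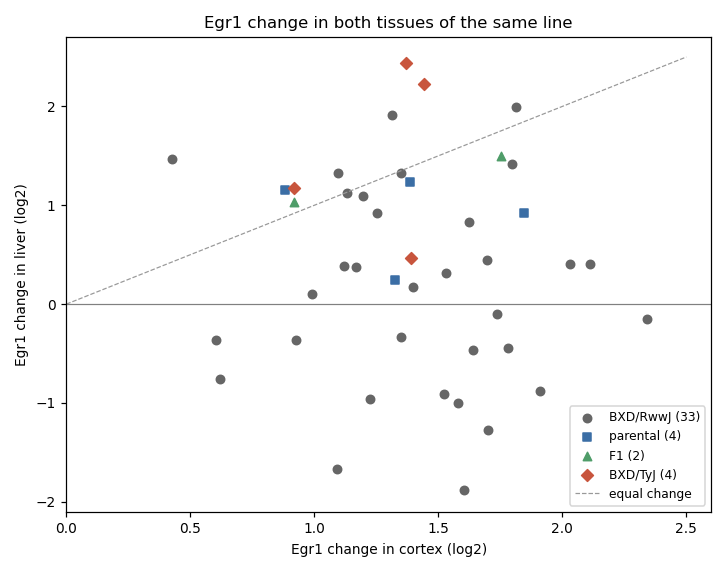
Egr1 change (SD minus Ctr, log2) in cortex and liver of the same line, for 33 BXD/RwwJ, 4 parental, 2 F1 and 4 BXD/TyJ pools; the dashed line marks equal change. All points lie right of 0 in cortex, while the BXD/RwwJ lines scatter around 0 in liver.

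The Egr1 change was smaller in liver than in cortex, by 1.13 on the log2 scale (SE 0.17, limma adjusted p = 1.57e-07 across 12695 genes listed in both tissues), and it was the smaller in 33 of 39 pools. A lower change in liver at this threshold was found for 29.6% of genes. Over the 33 lines the changes in both tissues were not correlated at the threshold (r = -0.067, rho = -0.031, permutation test, adjusted p = 0.772 and 0.866). Neither were the Ctr levels (r = 0.015, rho = -0.097, adjusted permutation p = 0.935 and 0.613) or the SD levels (r = -0.27, rho = -0.22, adjusted permutation p = 0.172 and 0.293). Without the 2 farthest lines these r were 0.056, -0.13 and -0.11.

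The genes whose paired change over the 33 lines was most like that of a member in cortex were named by Pearson's r among 14895 genes, with no test, and all values share the same libraries. For Egr1 the closest gene was Egr2 itself, followed by the nuclear receptor Nr4a1 (r = 0.868), the AP-1 subunit Fos (0.862), the ERK phosphatase Dusp6 (0.853) and the AP-1 subunit Fosl2 (0.828). For Egr2 it was Fos (0.931), followed by the kinase Sik1 (0.892), Egr1, Dusp6 (0.879) and the pyruvate dehydrogenase phosphatase Pdp1 (0.865). For Egr4 it was Nr4a1 (0.846), followed by Egr1, Junb (0.798), Dusp6 (0.778) and Fos (0.774). Of the 5 genes closest to Egr3, Fosl2 was also among those of Egr1. They were Tet3, an enzyme that oxidizes methylated cytosine (0.859), Fosl2 (0.821), the inositol phosphatase Synj2 (0.818), the postsynaptic scaffold Homer1 (0.802) and Ccdc6 (0.802). Among the genes ranked by likeness to Egr3, Egr1 stood at 30, Egr2 at 52 and Egr4 at 387. In liver the closest genes to Egr1 reached lower values, with Gtpbp3 (0.617), Lepre1 (0.593), Dact2 (0.575), Praf2 (0.554) and Plod3 (0.543) among 14106 genes.

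Genes of proteins that bind Egr factors or their complexes changed by less than the Egr genes in cortex. Of 5 partners, 4 were listed in cortex and all 4 rose, where 33% of all genes did, with a median of 0.10 against -0.0097 for all genes. Nab2, a corepressor that Egr factors are themselves known to induce, rose most, by 0.48 (SE 0.029, adjusted p = 3.32e-26, 39 of 39 pools), from 5.13 to 5.62 log2 CPM. The helicase Ddx20, the cofactor Hcfc1 and the corepressor Nab1 rose by 0.13, 0.076 and 0.066. In liver the 5 partners divided into 1 that rose (Ddx20, 0.12), 1 that fell (Nab1, -0.051) and 3 that did not pass, Nab2 among them (-0.043, adjusted p = 0.571), where 44.2% of all liver genes passed.

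Of 13 genes of the signalling routes to the Egr promoters, 7 rose, 3 fell and 3 did not pass in cortex, where 33% of all genes rose and 35.4% fell, with a median of 0.089 against -0.0097 for all genes. Those that rose were transcription factors and their cofactors. Srf, the serum response factor that binds CArG boxes, rose by 0.36 and Creb1 by 0.28, both in 39 of 39 pools, and the ternary complex factor Elk4 rose by 0.24. Those that fell were kinases. The CREB kinase Rps6ka5 fell by 0.30 and Mapk3 (ERK1) by 0.24, both in 38 of 39 pools. In liver 2 of the 13 rose, Creb1 (0.31) and Srf (0.18), while 3 fell and 8 did not pass, against 21.5% up and 22.6% down among all liver genes.

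Genes reported elsewhere as Egr targets showed no common direction. Of 15 listed in cortex, 7 rose, 7 fell and 1 did not pass, against 33% up and 35.4% down among all genes, with a median of -0.060 against -0.0097. Arc, the synaptic immediate early gene, rose by 2.92 (SE 0.095), from 6.36 to 9.28 log2 CPM, the largest change of the list. Atf3 rose by 0.61 and Pdgfb by 0.43. Acetylcholinesterase Ache fell by 0.26 in 39 of 39 pools, the neurotrophin receptor Ngfr by 0.24 and the GABA-A receptor subunit Gabra4 by 0.24. Of the 12 listed in liver, 2 fell (Icam1 and F3, by 0.20 and 0.16) and 10 did not pass, where 44.2% of all liver genes passed.

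The myelin genes that Egr2 is known to drive in Schwann cells were also counted. Whether Egr2 acts on them in the tissues sampled here was not tested. Of 5 listed in cortex, where 68.4% of all genes passed, Prx and Mag fell by 0.22 and 0.18, and 3 did not pass, Mbp among them (0.00019, SE 0.045). In liver, where Egr2 was not analysed, 1 of 6 fell (Mbp, by 0.30) and 5 did not pass, where 44.2% of all genes passed.

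**Figure D5:**
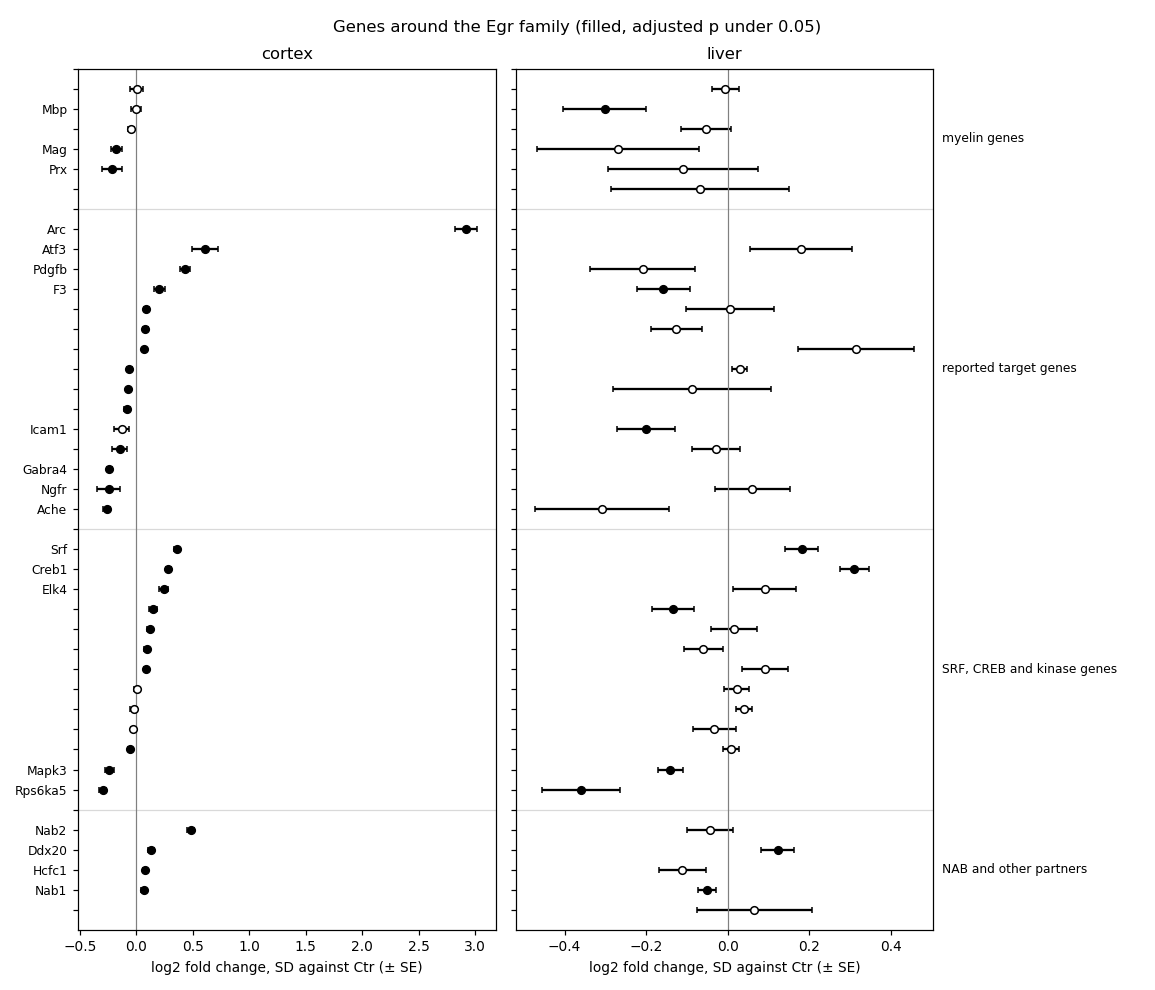
Log2 fold change (SD against Ctr, with SE as bars) of the partner, signalling, target and myelin genes in cortex and liver over 39 pools per condition; filled points passed an adjusted p under 0.05, the genes named in the text are labelled, and the scales of the panels differ. Arc lies far to the right in cortex, while most other genes lie within 0.6 of 0.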

How the data were processed

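Poly(A) RNA of pooled mice was sequenced, mapped to mm9 with STAR and counted per RefSeq gene with HTSeq, strand-aware, by the authors, who dropped genes with a mean under 10 raw reads. The deposited values are log2 CPM, normalized by the authors with edgeR's TMM, in 1 table per tissue and condition. Whole reads were recovered from the values (100% within 0.02 reads) and gave the library totals. The TMM factors averaged 1.00 over both conditions of a tissue. TMM scaling sets this average in any run, so it does not by itself show that Ctr and SD share a scale. In the 39 pools, depth was 18995492 to 28998853 reads in cortex and 4681101 to 8269401 in liver. Intervals of counting error cover reads only.

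SD was compared with Ctr by limma 3.58.1 (eBayes with trend, R 4.3.3) over all listed genes, with Benjamini-Hochberg adjustment and a threshold of 0.05, on 39 pools per condition. The fit was tested on simulated data. This main fit held no term for the line. Lines do pair the samples: same-line libraries deviated together (r at least 0.299 in cortex and 0.169 in liver, medians 0.614 and 0.475). The shares of genes passing for SD against Ctr and the calls of listed genes come from this unpaired fit. Only the calls of the members are given with the line as a block as well. Pairs of members were compared by sign-flip permutation, spreads by swapping conditions within lines and correlations by permuting lines, with 100000 resamples (scipy 1.17.1, numpy 2.4.6). Gene models and promoter windows came from GENCODE M1 (mm9). Named genes were the members, the 5 genes most like each by r of the change, and, from 4 pathway lists and 7 marker lists, those with the largest change. The members and lists were chosen with earlier results of these data known. Some genes of the pathway lists are not reported here and are not in the counts. Alternatives were other scalings, filters, sample sets and left-out lines, and 1 (voom with the line as block) was added after seeing the data.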

Additional observations from a re-analysis of the deposited data

Results flagged for a closer look

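The Egr1 change differed between tissues. The liver change minus the cortex change was -1.13 on the log2 scale (SE 0.17, limma adjusted p = 1.57e-07, lower in liver in 33 of 39 pools), with a mean change of 0.27 in liver and 1.40 in cortex.

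Among the 4 BXD/TyJ pools, the Egr1 change in cortex of BXD29t lay far from the others, at 0.92 against 1.37 to 1.44 (gap over range 0.858, above Dixon's critical value for 4 samples). It was 1 of 15 such sets examined, of which chance flags about 1 in 20.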

How the results depend on the processing

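The SD change in cortex kept its direction and call for all 4 members under the 11 alternatives run and on leaving out each of the 39 pools. Leaving out 1 pool moved the log2 fold change over 1.38 to 1.43 for Egr1, 2.99 to 3.12 for Egr2, 1.51 to 1.55 for Egr3 and 1.12 to 1.18 for Egr4. The tissue difference of Egr1 kept its call, at -1.19 to -1.07 on leaving out 1 pool and at -1.13 with no replicate block. In liver the Egr1 change passed only with all 43 pools (0.39, adjusted p = 0.0447). Over the other alternatives it did not pass (lowest value 0.14 in the 33 lines, highest adjusted p 0.611), nor on leaving out 1 pool (0.23 without BXD48 to 0.33 without BXD43). The replicate block changed no call of a member, with log2 fold changes of 1.40, 3.04, 1.53 and 1.14 for Egr1 to Egr4 in cortex and 0.27 for Egr1 in liver.

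In linear CPM, where a gain of equal fold grows with the level, some differences reversed. These were the change of Egr1 minus Egr2 (336 CPM), Egr1 minus Egr3 (260 CPM), Egr2 minus Egr3 (-75.6 CPM) and Egr2 minus Egr4 (-0.72 CPM), and the log2 ratio of spreads, SD over Ctr, in cortex for Egr1 (0.82), Egr2 (1.32), Egr3 (1.35) and Egr4 (0.86). The Egr4 ratio, -0.0038 on the log2 scale, also turned in the 33 lines (0.019), in all 43 pools (0.0028) and after median centring (0.0068). Near-zero correlations turned in linear CPM for Ctr with SD levels of Egr4 (-0.036) and for the Egr1 change in cortex with liver (0.015). The other 102 of 104 alternative values of Pearson's r kept direction and call. Of the 104 values of Spearman's rho, 5 gained a call, those of Egr3 in Ctr pools with Egr1 (0.401), Egr2 (0.412) and Egr4 (0.384) over 39 pools and with Egr1 (0.362) and Egr2 (0.388) over 37 strains. None lost one, and 4 that did not pass changed sign. At the lower depth and level in liver, Egr1 had a median of 178 reads per Ctr library.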
